A study of Mus musculus with 30 samples.

Results

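The glucocorticoid and CRH stress axis is covered here by 9 genes, taken by symbol from the 17477 genes of a hippocampal RNA-seq count table: Crh (ENSMUSG00000049796), Crhr1 (ENSMUSG00000018634), Crhbp (ENSMUSG00000021680), Nr3c1 (ENSMUSG00000024431), Nr3c2 (ENSMUSG00000031618), Hsd11b1 (ENSMUSG00000016194), Fkbp5 (ENSMUSG00000024222), Sgk1 (ENSMUSG00000019970) and Tsc22d3 (ENSMUSG00000031431). They were taken by symbol and not by a measured value, although earlier results of these data were known when they were chosen. The libraries came from the hippocampus of 30 adult C57 BL/6J mice, each mouse being 1 library. Socially isolated (SI) mice lived 1 to a cage from weaning into adulthood, and group-housed (GH) mice, the controls, shared cages over the same period. There were 8 SI and 7 GH females (animals 41 to 79) and 7 SI and 8 GH males (animals 1 to 39). All mice were otherwise untreated in the labels. The labels do not say which GH mice shared a cage, so that each mouse was treated as independent, and the p-values measure the spread between mice.

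Corticotropin-releasing hormone (CRH) starts the hormonal stress response, which ends in the release of glucocorticoids from the adrenal gland. In mice the main glucocorticoid, corticosterone, enters the brain and binds a pair of nuclear receptors, the high-affinity mineralocorticoid receptor and the lower-affinity glucocorticoid receptor, and the hippocampus is known for holding much of both. The bound receptors switch on target genes, and receptors in the hippocampus take part in the feedback that ends the response. CRH is also made locally by hippocampal interneurons and acts on nearby principal cells through its receptor.

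None of the 9 genes was a DEG between SI and GH mice. Among females, edgeR's quasi-likelihood test with adjustment over 16026 genes called 0 of the 9, where 3.89% of all genes tested were called (624 DEGs). At an unadjusted p under 0.05 there were 3 of the 9, Tsc22d3 and Hsd11b1 with lower and Crhr1 with higher levels in SI females, beside 20.2% of all genes (11% lower and 9.29% higher). The same test called 0 of the 9 in males, where 0% of 15833 genes were called (0% also without the SI males 25, 33 and 39 described later), and 0 of the 9 had an unadjusted p under 0.05 beside 13% of all genes. DESeq2 with the same covariates also called 0 of the 9 in either sex, where it called 7.88% of all genes in females and 0.278% in males. Run with sample quality weights in place of the surrogate variables, limma-voom called 0 of the 9, beside 5.23% of all genes in females and 0% in males. The CPM ranges of SI and GH mice overlapped for all 9 genes in both sexes. Ranges that did not overlap were seen for 0.3% of all genes in females and for 0.0568% in males. With the trend on transcript length and GC content removed from each library, Hsd11b1 and Tsc22d3 were called in females, as described with those genes.

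The receptors act on target genes mainly by binding a palindromic DNA element, and promoter sequence was therefore searched for it. RefSeq promoter windows (build GRCm38.p6), which run from 250 bases before to 50 bases after a transcription start, were found for 7 of the 9 genes, in 14 windows. Nr3c1 and Crh had no window in the table used. The element was searched as the letters GNACA and TGTNC set 3 bases apart, in which N is any base and which read the same on both strands, and it was present in 156 of 32851 windows (0.475%). It lay in 1 of the 14 windows, that of a start of Sgk1, where it began 188 bases before the start. The hexamer AGAACA, or TGTTCT on the other strand, which can be part of the element, was present in 19% of all windows and in 4 windows of 2 of the genes, Sgk1 and Tsc22d3. Among 18 further genes known to be induced by glucocorticoids, 16 had a window, and the element lay in 3 of 22 windows, those of Mt1 and Fam107a. The windows of Fam107a that held it overlap and share the same element, so that it lay in 2 of the 16 genes. The 250 bases before the start are shown for the 3 genes with the element and for Tsc22d3, whose levels are described later, 5′ to 3′ on the strand of the gene, with the element in capitals and, in Tsc22d3, the hexamer in capitals. The windows lie at chr10:21993640-21993889 (plus strand, Sgk1), chr8:94178839-94179088 (plus strand, Mt1), chr14:8309780-8310029 (minus strand, Fam107a) and chrX:140600523-140600772 (minus strand, Tsc22d3), in sequence before an annotated start.
Sgk1: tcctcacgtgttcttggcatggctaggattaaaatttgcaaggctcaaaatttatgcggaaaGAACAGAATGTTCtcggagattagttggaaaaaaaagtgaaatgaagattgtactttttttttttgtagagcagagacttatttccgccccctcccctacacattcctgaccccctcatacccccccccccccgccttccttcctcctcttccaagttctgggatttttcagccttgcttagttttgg
Mt1: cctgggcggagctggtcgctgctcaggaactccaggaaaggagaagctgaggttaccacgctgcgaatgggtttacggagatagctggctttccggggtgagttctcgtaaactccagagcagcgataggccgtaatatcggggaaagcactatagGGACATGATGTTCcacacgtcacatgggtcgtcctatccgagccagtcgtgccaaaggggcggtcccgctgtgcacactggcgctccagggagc
Fam107a: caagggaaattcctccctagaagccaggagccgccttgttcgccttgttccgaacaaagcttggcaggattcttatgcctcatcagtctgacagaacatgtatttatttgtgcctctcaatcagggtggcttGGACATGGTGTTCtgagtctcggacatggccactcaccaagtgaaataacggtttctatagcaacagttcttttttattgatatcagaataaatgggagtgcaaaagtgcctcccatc
Tsc22d3: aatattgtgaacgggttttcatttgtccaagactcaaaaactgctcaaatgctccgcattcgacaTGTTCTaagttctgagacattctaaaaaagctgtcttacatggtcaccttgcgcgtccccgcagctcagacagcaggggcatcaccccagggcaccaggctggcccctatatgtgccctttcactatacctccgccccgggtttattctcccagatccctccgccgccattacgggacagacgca
The capitals of Mt1 begin 94, those of Fam107a 118 and those of Tsc22d3 185 bases before the start. A match of letters is a description of the sequence and was not tested for binding.

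All 9 genes were detected in every mouse. Levels are given as CPM, counts scaled to the TMM-adjusted library size. Divided by the length of the longest transcript in kilobases, which allows genes to be set side by side, the mean level over the 30 mice was lowest for Crh, at 2.05 ± 0.772 CPM per kb (SD, n = 30). Crhr1 followed at 3.91 ± 0.540, then Fkbp5 at 11.2 ± 1.79, Nr3c1 at 12.4 ± 0.860, Sgk1 at 14.6 ± 2.78 and Crhbp at 17.1 ± 2.35 CPM per kb. The highest levels per kb were those of Nr3c2 at 20.1 ± 4.37, Hsd11b1 at 24.7 ± 4.77 and Tsc22d3 at 29.1 ± 6.50. From Fkbp5 upward, each gene differed from the next in this order by less than the larger of their SDs. All 9 genes were measured in the same mice, and the order of neighbours within each mouse was not tested. The gap from Crh to Crhr1 and that from Crhr1 to Fkbp5 exceeded both SDs. Among all genes with a length, Crh stood at percentile 31.3 and Tsc22d3 at percentile 84.2 of CPM per kb. Crh rested on 27 to 243 counts per library, and the other 8 genes on at least 189, so that counting error weighs most on Crh.

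Total counts per library ran from 24565563 to 100844898 in SI females, 28667655 to 53512172 in GH females, 18809307 to 58232296 in SI males and 33433048 to 66575824 in GH males. The markers of hippocampal neurons (Camk2a, Neurod6, Neurod2, Zbtb20, Slc17a7, Prox1, Wfs1) were present in every mouse, with summed levels of 4472 to 9058 CPM. Markers of the hypothalamus, the main seat of Crh neurons, summed to at most 5.60 CPM over the 5 of 6 in the table, and 3 of the 5 were at 0 in at least 1 SI male. SI males 25, 33 and 39 stood apart, with scores of 51.0 to 81.8 on a first principal component that carried 70.3% of the male variance, where the other 12 males scored -31.4 to 1.18. The fitted Log2FC in males are given with and without them. Choroid plexus markers differed widely between mice, from a summed 42.7 CPM to 4966 CPM. In bulk tissue, fewer cells of a type and less RNA per cell cannot be told apart.

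**Figure D1:**
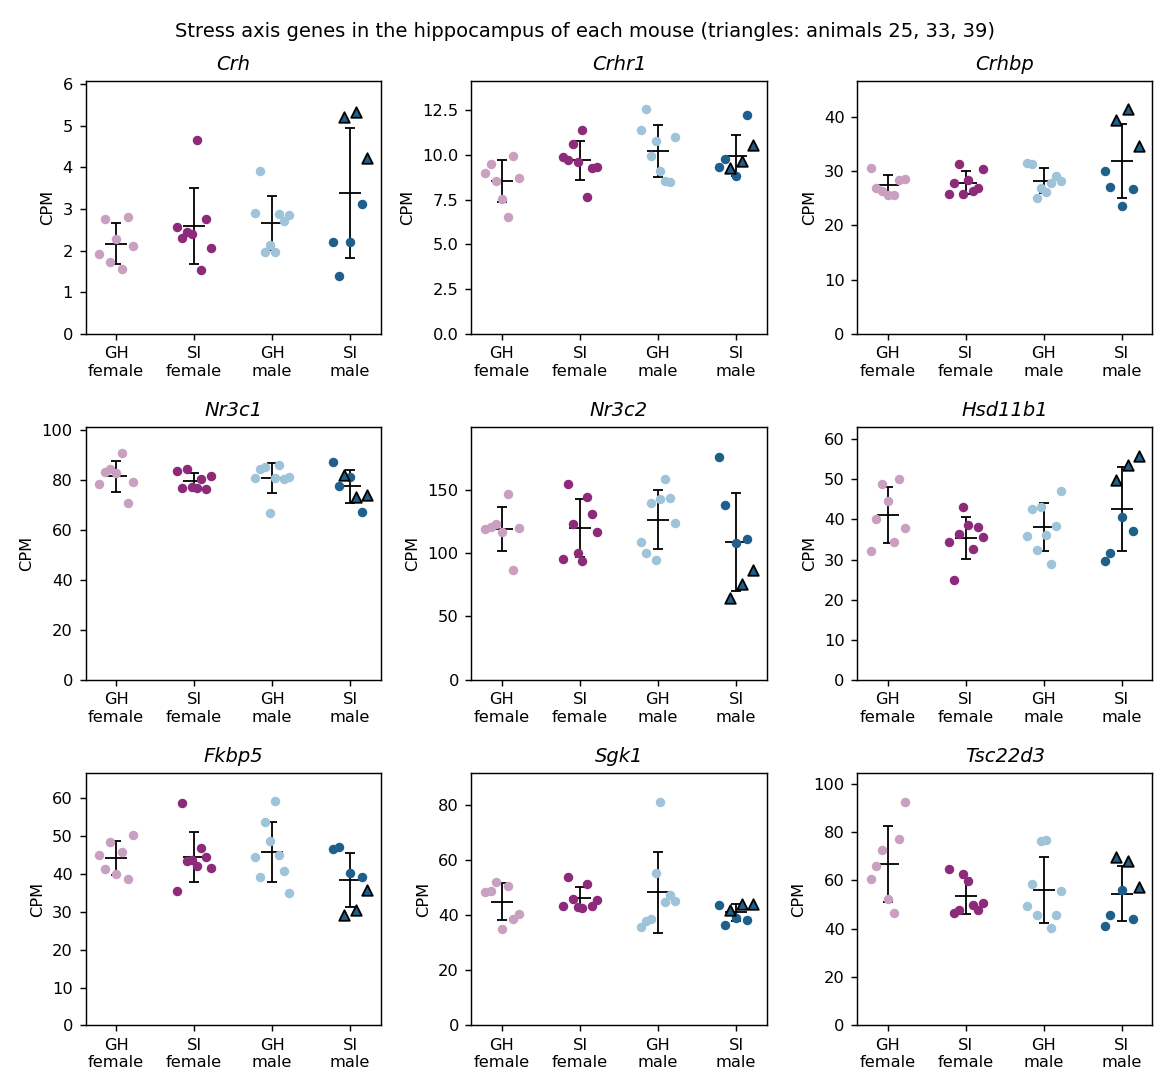
CPM of the 9 genes in each mouse (y axes from 0), by housing and sex on the x axes; points are mice, bars the mean and SD, and triangles the SI males 25, 33 and 39. SI and GH ranges overlap in all 9 panels, SI females lie at 46.6 to 64.5 CPM for Tsc22d3 beside 46.5 to 92.4 CPM in GH females, and the triangles lie at 4.22 to 5.33 CPM for Crh and at 64.7 to 86.2 CPM for Nr3c2.

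Crh, the peptide hormone that starts the stress response, ranged in SI females from 1.55 CPM through a median of 2.43 to 4.65 CPM, and in GH females from 1.56 through 2.12 to 2.82 CPM. SI female 53 alone exceeded the highest GH female. The mean was 2.60 ± 0.908 (SD, n = 8) in SI and 2.17 ± 0.483 (SD, n = 7) in GH females, and the fitted Log2FC was 0.24 (SE 0.140), with an adjusted p of 0.369 (edgeR). Among males, Crh ran from 1.40 through 3.13 to 5.33 CPM under SI and from 1.97 through 2.78 to 3.92 CPM under GH. The 3 SI males above the highest GH male were 25, 33 and 39, and the other 4 SI males lay between 1.40 and 3.13 CPM. The mean was higher in SI males (3.39 ± 1.56, n = 7) than in GH males (2.67 ± 0.650, n = 8), while the fitted Log2FC, which adjusts for surrogate variables, was -0.16 (SE 0.176), with an adjusted p of 0.717 (edgeR). Without SI males 25, 33 and 39 the mean of the SI males was 2.23 and the fitted Log2FC was -0.29, with an adjusted p of 0.744. Summed interneuron markers, which mark the cells that make Crh in this region, ran from 709 to 848 CPM in SI females and 625.3 to 827 in GH females. The sums were 748 to 1014 in SI males and 716 to 866 in GH males, with SI males 25 and 33 highest. The markers did not move together in males. Sst, Pvalb, Npy and Vip each had 3 SI males above every GH male. Gad1, Gad2 and Slc32a1 each had 3 SI males below every GH male and 1 above. Lhx6 had 2 below and 1 above. The part of these cells in the Crh values was not tested.

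Crhr1, the receptor through which CRH acts on hippocampal principal cells, had the second smallest p of the 9 genes in females. It ranged from 7.67 through a median of 9.68 to 11.4 CPM in SI females and from 6.51 through 8.73 to 9.95 CPM in GH females. Of the 8 SI females, 7 lay above the GH median, and 2 above the highest GH female. The fitted Log2FC was 0.18 (SE 0.0659, 95% confidence interval 0.039 to 0.32), with an unadjusted p of 0.0153 and an adjusted p of 0.137 (edgeR). With each female left out in turn, the unadjusted p stayed under 0.05 in 13 of 15 fits, and without GH female 71 the Log2FC was 0.10 with an unadjusted p of 0.176. An exact permutation test of the mean log2 CPM over all 6435 splits of the females, without covariates and chosen after the data were seen, gave a two-sided p of 0.0761. In males, Crhr1 ran from 8.80 through 9.66 to 12.2 CPM under SI and from 8.48 through 10.3 to 12.5 CPM under GH, and the Log2FC was -0.06 (SE 0.109), with an adjusted p of 0.854, or -0.13 (adjusted p = 0.743) without SI males 25, 33 and 39.

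Crhbp, a secreted protein that binds CRH and keeps it from its receptors, had close values in SI and GH females. SI females lay at 25.8 to 31.4 CPM and GH females at 25.6 to 30.6 CPM, with a Log2FC of 0.0069 and a 95% confidence interval from -0.095 to 0.11. SI males lay at 23.5 to 41.5 CPM and GH males at 24.99 to 31.6 CPM. SI males 25, 33 and 39, at 34.6 to 41.5 CPM, were above every GH male, and the other 4 lay at 23.5 to 29.95 CPM. The fitted Log2FC in males was -0.04 (SE 0.0779), with an adjusted p of 0.857, and -0.10 (adjusted p = 0.759) without the 3.

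Nr3c1 encodes the glucocorticoid receptor. It varied least of the 9 genes among SI females, with a coefficient of variation of 4.16%, and by 7.57% among GH females. SI females ranged from 76.3 to 84.4 CPM and GH females from 70.8 to 90.8 CPM. The Log2FC was -0.04 (SE 0.0385), and its 95% confidence interval ran from -0.12 to 0.045 (adjusted p = 0.649, edgeR). SI males ranged from 67.0 to 86.9 CPM and GH males from 66.7 to 86.1 CPM, with a Log2FC of -0.06 (SE 0.0692) and an interval from -0.21 to 0.085, and -0.01 (adjusted p = 0.959) without SI males 25, 33 and 39. Nr3c2, which encodes the mineralocorticoid receptor, had the highest CPM of the 9 genes, with means of 119.7 ± 22.8 in SI females and 118.8 ± 17.4 in GH females. The females' Log2FC was -0.0046 (SE 0.0503, 95% confidence interval -0.11 to 0.10). In males the spread was wider, 64.7 to 175.9 CPM under SI and 94.3 to 158.6 CPM under GH, and SI males 25, 33 and 39 were the lowest of all 15 males at 64.7 to 86.2 CPM. The Log2FC was 0.04 (SE 0.111) with all males and 0.20 (SE 0.114, adjusted p = 0.742) without these 3.

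Hsd11b1 encodes the enzyme that regenerates active corticosterone from its inert form inside cells. SI females ranged from 24.8 through a median of 35.9 to 43.0 CPM and GH females from 32.1 through 40.2 to 50.2 CPM. Of the 8 SI females, 7 lay below the GH median, and SI female 45 alone lay below the lowest GH female. The Log2FC was -0.16 (SE 0.0615, 95% confidence interval -0.29 to -0.031), with an unadjusted p of 0.0180 and an adjusted p of 0.148 (edgeR), and the unadjusted p stayed under 0.05 in 12 of 15 fits with a female left out. The exact permutation test without covariates gave a two-sided p of 0.105. With the trend on transcript length and GC content removed, the Log2FC was -0.20 and the adjusted p 0.0301, where 7.69% of all genes were called. Without GH female 46, the lowest GH female, they were -0.23 and 0.0358. That fit called 1377 of 16067 genes, beside 624 of 16026 with all females. In males, Hsd11b1 ran from 29.5 through 40.7 to 55.8 CPM under SI and from 28.8 through 37.2 to 47.04 CPM under GH. SI males 25, 33 and 39 were the 3 highest males at 49.9 to 55.8 CPM, and the Log2FC was -0.07 (adjusted p = 0.743) with them and -0.14 (adjusted p = 0.745) without them.

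The targets Fkbp5, Sgk1 and Tsc22d3 are induced when glucocorticoids bind their receptor. Fkbp5, a co-chaperone that lowers the affinity of the receptor for hormone, lay at 35.6 to 58.6 CPM in SI females and at 38.7 to 50.2 CPM in GH females. Its Log2FC in females was 0.01 (SE 0.0674, 95% confidence interval -0.13 to 0.15). In males it lay at 29.2 to 47.1 CPM under SI and at 35.0 to 59.1 CPM under GH, with SI males 25 and 33, at 29.2 and 30.5 CPM, below every GH male. The Log2FC was -0.11 (SE 0.0967, adjusted p = 0.620) with all males, -0.07 (adjusted p = 0.874) without 25, 33 and 39, and -0.04, -0.05 and -0.07 without GH male 16, GH male 3 or SI male 38. Sgk1, a kinase that regulates ion channels and transporters, lay at 42.6 to 53.7 CPM in SI females and at 35.0 to 52.01 CPM in GH females, with a Log2FC of -0.00030 and an interval from -0.13 to 0.13. SI males ranged from 36.5 through a median of 42.0 to 44.1 CPM, and GH males from 35.6 through 45.02 to 80.9 CPM. All 7 SI males lay below the GH median but within the range of the GH males, of which animal 16 was highest. The Log2FC was -0.19 (SE 0.153), with an adjusted p of 0.608 (edgeR), and the exact permutation test without covariates gave a two-sided p of 0.239. Without GH male 16 the Log2FC was -0.09 (adjusted p = 0.796), and without SI males 25, 33 and 39 it was -0.13 (adjusted p = 0.838).

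Tsc22d3 encodes GILZ, a leucine zipper protein that carries part of the anti-inflammatory action of glucocorticoids, and it had the smallest p of the 9 genes within females. SI females ranged from 46.6 through a median of 50.1 to 64.5 CPM and GH females from 46.5 through 66.1 to 92.4 CPM. All 8 SI females lay below the GH median, and none lay below the lowest GH female. The mean was 53.7 ± 7.43 (SD, n = 8) in SI and 66.8 ± 15.6 (SD, n = 7) in GH females. The Log2FC was -0.23 (SE 0.0830, 95% confidence interval -0.41 to -0.057), with an unadjusted p of 0.0125 and an adjusted p of 0.124 (edgeR). The exact permutation test without covariates gave a two-sided p of 0.0572. Removing the length and GC trend gave a Log2FC of -0.25 and an adjusted p of 0.0318. In males, Tsc22d3 ran from 40.9 through 56.0 to 69.6 CPM under SI and from 40.3 through 52.4 to 76.7 CPM under GH. The means were close, 54.5 ± 11.4 (SD, n = 7) and 56.0 ± 13.8 (SD, n = 8), and the fitted Log2FC was -0.22 (SE 0.138, adjusted p = 0.481), or -0.24 (adjusted p = 0.745) without SI males 25, 33 and 39.

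**Figure D2:**
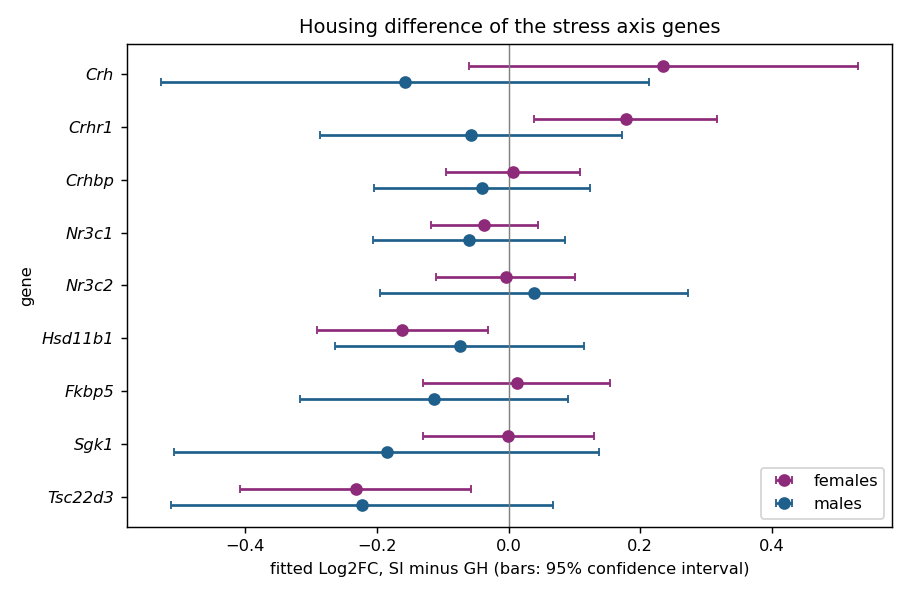
Fitted Log2FC (x axis, SI minus GH) of each of the 9 genes (y axis) in females and in males, with bars for the 95% confidence interval from edgeR's quasi-likelihood fit. The intervals of Crhr1, Hsd11b1 and Tsc22d3 in females lie on 1 side of 0, from 0.039 to 0.32, -0.29 to -0.031 and -0.41 to -0.057, and no adjusted p was under 0.05.

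Tsc22d3 was set beside the markers of the choroid plexus in each mouse. GH females 79, 78 and 48, with the highest Tsc22d3 (92.4, 77.0 and 72.7 CPM), had summed choroid plexus markers (Ttr, Folr1, Clic6, Kl, Kcne2, Otx2, Sostdc1, Kcnj13) of 865, 1021 and 1765 CPM. GH female 71, with the lowest Tsc22d3 (46.5 CPM), had the highest sum of any mouse, 4966 CPM. Other females did not lie in this order, as GH female 54 had a low sum (1366 CPM) and low Tsc22d3 (52.3 CPM), and GH female 47 a sum of 3076 CPM and 66.1 CPM of Tsc22d3. The sum ran from 1579 to 4022 CPM in SI females, with a median of 2930, and from 865 to 4966 CPM in GH females, with a median of 1765. Of the 8 markers, 0 were called and 8 had a positive Log2FC in females. With the mean of the list as a further covariate, the Log2FC of Tsc22d3 was -0.18 and its unadjusted p 0.0788 (edgeR), while Crhr1 and Hsd11b1 kept unadjusted p-values of 0.0217 and 0.0296. In males, SI males 25 and 33, with the highest sums of 4182 and 3846 CPM, had 69.6 and 67.997 CPM of Tsc22d3. GH males 15 and 16 had the highest Tsc22d3 of the males, 76.1 and 76.7 CPM, at sums of 2087 and 2257 CPM. The males lowest in the markers were GH males 1, 2 and 3 and SI males 7 and 8. Their sums were 42.7 to 162 CPM, and their Tsc22d3 was 40.9 to 58.4 CPM. The remaining males, with sums of 1543 to 2248 CPM, had 40.3 to 57.2 CPM of Tsc22d3. The part of the choroid plexus in these values was tested only by the covariate.

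**Figure D3:**
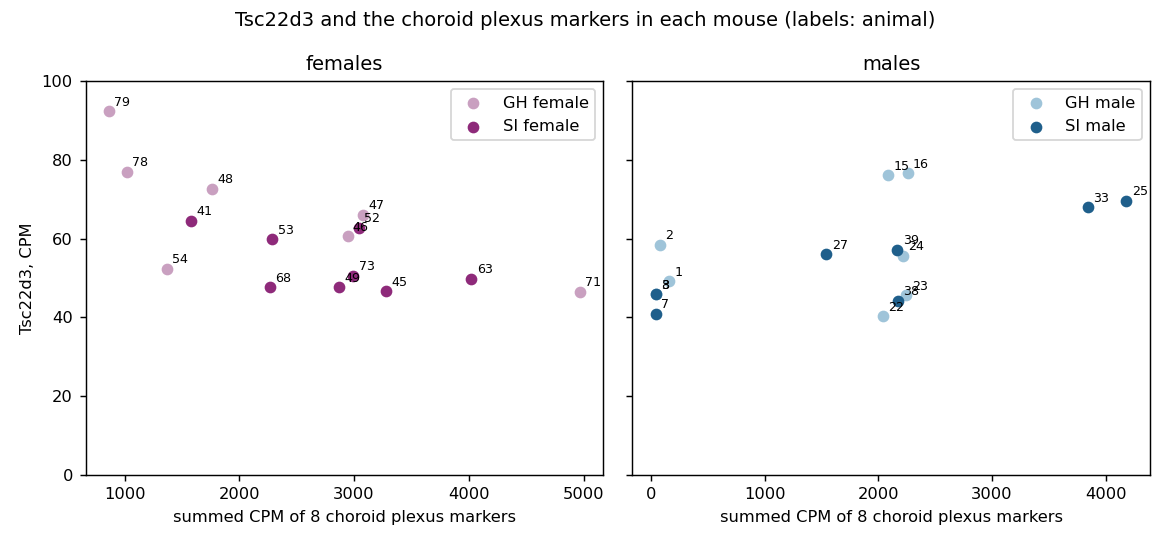
Tsc22d3 (y axis, CPM) against the summed CPM of 8 choroid plexus markers (x axis) in each mouse, females left and males right, labelled with animal numbers. GH females 79 and 78 lie at the upper left (865 and 1021 CPM of markers, 92.4 and 77.0 CPM of Tsc22d3) and GH female 71 at the lower right (4966 and 46.5 CPM).

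A difference of the housing effect between the sexes was tested for each gene as a sex by housing term, with all 30 mice fitted together. It was called for 0 of the 9 genes and for 0% of 16391 genes by edgeR, and DESeq2 with the same covariates called 0 of the 9 and 0.0671% of all genes. At an unadjusted p under 0.05 there were 3 of the 9, beside 7.75% of all genes. The housing Log2FC in males minus that in females was -0.55 (SE 0.200) for Crh, with an unadjusted p of 0.0103 and an adjusted p of 0.550. For Crhr1 it was -0.30 (SE 0.107), with an unadjusted p of 0.00871 and an adjusted p of 0.545. Both genes of the ligand and its receptor thus had lower fitted effects in males than in females. Hsd11b1 had the opposite sign, 0.21 (SE 0.0977), with an unadjusted p of 0.0411 and an adjusted p of 0.634, and its unadjusted p stayed under 0.05 in 19 of 30 fits with a mouse left out. The other 6 genes had unadjusted p-values from 0.137 to 0.907. Without SI males 25, 33 and 39 the values were -0.53 for Crh, -0.32 for Crhr1 and 0.18 for Hsd11b1, and adjusted p-values were 0.478, 0.359 and 0.523. Without surrogate variables 0 of the 9 had an unadjusted p under 0.05, beside 18.8% of all genes, and the value for Crh was 0.07.

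Other genes of the axis were read from 5 lists. Of 18 genes known to be induced by glucocorticoids, 2 fell and 0 rose in females, where 2.93% of all genes fell and 0.961% rose. The 2 were Mt1, a metallothionein that binds zinc and copper and holds the element shown in its promoter window, and Pdk4, a kinase that turns down the use of glucose through pyruvate dehydrogenase. Mt1 ranged from 175 through 213 to 301 CPM in SI females and from 222 through 264 to 351 CPM in GH females, with 5 of the 8 SI females below the lowest GH female (Log2FC -0.30, SE 0.0509, adjusted p = 0.00705). Pdk4 ranged from 8.54 through 11.8 to 15.2 CPM and from 11.5 through 15.5 to 17.3 CPM in the same groups, and 3 SI females lay below the lowest GH female (Log2FC -0.30, SE 0.0590, adjusted p = 0.0129). The call of Mt1 held with each female left out in turn, whereas that of Pdk4 was lost without SI female 45, 63 or 68 or GH female 71 (adjusted p from 0.0637 to 0.114). DESeq2 called 4 of the 18, all lower, beside 7.88% of all genes called in either direction. It added Hif3a, a regulator of the hypoxia response, and Fam107a. The list was not of 1 direction: at an unadjusted p under 0.05, 5 of 18 genes were lower and 3 higher in SI females, beside 11% of all genes lower and 9.29% higher. Its median Log2FC was -0.10, with 12 of 18 below 0, beside a median of 0.0077 and 47.2% below 0 over all genes. Fam107a, a stress-induced actin-binding protein whose promoter also holds the element, had a Log2FC of -0.22 with an adjusted p of 0.106 (edgeR) and of 0.0354 by DESeq2.

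In males edgeR and DESeq2 called 0 of these 18 genes, with 3 at an unadjusted p under 0.05, all lower in SI, beside 7.38% of all genes lower and 13% in either direction. The median Log2FC was -0.16, with 14 of 18 below 0, beside -0.0020 and 50.7% below 0 over all genes, and it was -0.14 with 16 of 18 below 0 and 0 called without SI males 25, 33 and 39. Dusp1, a phosphatase that switches off MAP kinases, had a Log2FC of -0.52 (SE 0.178, unadjusted p = 0.00967, adjusted p = 0.316, edgeR), or -0.54 (adjusted p = 0.742) without the 3 SI males. Pdk4 had a Log2FC of -0.28 in males (SE 0.116, unadjusted p = 0.0276, adjusted p = 0.352), with 5 of the 7 SI males below the lowest GH male, and of -0.22 (adjusted p = 0.742) without the 3. Mt1 had a Log2FC in males of 0.05 (adjusted p = 0.741), or -0.05 (adjusted p = 0.851) without the 3, which were the SI males above every GH male. Dusp1 is also an immediate early gene of active neurons, and the list of 10 immediate early genes (Fos, Fosb, Junb, Arc, Egr1, Egr2, Nr4a1, Npas4, Ier2, Btg2) had a median Log2FC of -0.36 in males, or -0.32 without the 3. Of the 10, edgeR called 0 and DESeq2 1 (Fosb, adjusted p = 0.0497), where DESeq2 called 0.278% of all genes. By edgeR, 6 had an unadjusted p under 0.05 with all males, beside 13% of all genes. Their summed levels were of 203 to 513 CPM in SI and 267 to 603 CPM in GH males. Its part in the Dusp1 values was not tested.

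Of the chaperones that fold the receptors and hold them ready for hormone, edgeR called 3 of 11, all higher in SI females, where 0.961% of all genes were called higher. Stip1, which passes the receptor from Hsp70 to Hsp90, ranged from 181 through 189 to 216 CPM in SI females and from 152 through 163 to 173 CPM in GH females. All 8 SI females lay above every GH female (Log2FC 0.24, SE 0.0392, adjusted p = 0.00705). Hspa8, the constitutive Hsp70, had means of 1697 ± 99.5 and 1453 ± 74.2 CPM, again with no overlap (Log2FC 0.22, adjusted p = 0.0129). Ranges of SI and GH females did not overlap for 0.3% of all genes. Fkbp4, the co-chaperone that counters Fkbp5 by raising hormone binding, had means of 129 ± 9.30 and 112 ± 7.53 CPM, with 4 of 8 SI females above the highest GH female (Log2FC 0.18, adjusted p = 0.0409). With each female left out in turn, Stip1 stayed called, Hspa8 lost its call without SI female 68 (adjusted p = 0.0511), and Fkbp4 lost its call without any 1 of 8 females, SI females 45, 49, 63, 68 and 73 and GH females 48, 54 and 71 (adjusted p from 0.0564 to 0.158). Fkbp4 was also not called with the choroid plexus list as a covariate (adjusted p = 0.0770). The list had a median Log2FC of 0.12, with 10 of 11 above 0, beside 52.8% of all genes. DESeq2 called 4 of the 11, beside 7.88% of all genes, and edgeR called 5 with the length and GC trend removed, beside 7.69%. In males edgeR and DESeq2 called 0 of 11, 0 had an unadjusted p under 0.05, and the median was 0.03, or -0.03 without SI males 25, 33 and 39. Hsp90aa1 and Dnajb1 had the smallest p-values there, with Log2FC of 0.21 (adjusted p = 0.454) and -0.14 (adjusted p = 0.455), and of 0.09 (adjusted p = 0.826) and -0.16 (adjusted p = 0.742) without SI males 25, 33 and 39. For Hsp90aa1 these 3 were the SI males above every GH male. Without surrogate variables, edgeR called 0 of the 18 induced genes and 0 of the 11 chaperones in females, as well as 0% of all genes. Also without them, limma-voom with sample quality weights called 5 of the 18 and 3 of the 11, beside 5.23% of all genes. Mt1, Pdk4, Stip1, Hspa8 and Fkbp4 were among these. With the well digit in place of the surrogate variables, edgeR called none of these 5 genes (adjusted p from 0.113 to 0.361), as well as 0 of all 16026 genes.

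Coregulators, which bind the hormone-loaded receptor and modify chromatin, had 0 of 10 called by edgeR in females and a median Log2FC of 0.05. Hdac2, a histone deacetylase, lay at 61.8 to 74.4 CPM in SI females, above every GH female (52.002 to 61.6 CPM), with a Log2FC of 0.15 and an adjusted p of 0.0866, and was called by DESeq2 (adjusted p = 0.0381). Among all genes in females, 0.3% had ranges without overlap and 7.88% were called by DESeq2. Ncoa3, a coactivator, had a Log2FC of 0.10 (adjusted p = 0.260). In males 0 of 10 were called by edgeR or DESeq2, with the coactivators Ncoa2 at -0.22 (adjusted p = 0.312) and Ep300 at -0.16 (adjusted p = 0.383). Without SI males 25, 33 and 39 these were -0.05 (adjusted p = 0.846) and 0.01 (adjusted p = 0.961). Of 11 genes of CRH, vasopressin and PACAP signalling, 7 were in the table and edgeR called 0 in either sex. The receptor for the stress peptide PACAP, Adcyap1r1, ranged from 158 to 220 CPM in SI and 198 to 248 CPM in GH females, with 6 of 8 SI females below the lowest GH female (Log2FC -0.15, adjusted p = 0.0635). It was called lower in females by DESeq2 (adjusted p = 0.0131), by limma-voom (0.0482) and with the length and GC trend removed (0.0306). In males its Log2FC was -0.17 (adjusted p = 0.330), or -0.08 (adjusted p = 0.754) without SI males 25, 33 and 39. Avp, vasopressin, had a Log2FC of 0.74 in females (adjusted p = 0.255) at means of 1.78 and 1.05 CPM, and Pomc, the precursor of ACTH, 0.40 in males (adjusted p = 0.333), or 0.20 (adjusted p = 0.747) without the 3. Of 9 genes of steroid supply and clearance, 7 were in the table and edgeR and DESeq2 called 0 in either sex. Srd5a1, which inactivates corticosterone by reduction, had a Log2FC of -0.11 (adjusted p = 0.202) and Abcb1b, a P-glycoprotein that exports steroids and drugs, -0.14 (adjusted p = 0.353) in females. In males H6pd, which supplies the cofactor of Hsd11b1, had a Log2FC of 0.09 (adjusted p = 0.630) and Star, which carries cholesterol into mitochondria, -0.09 (adjusted p = 0.644). Without the 3 SI males these were 0.17 (adjusted p = 0.742) and -0.07 (adjusted p = 0.830).

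**Figure D4:**
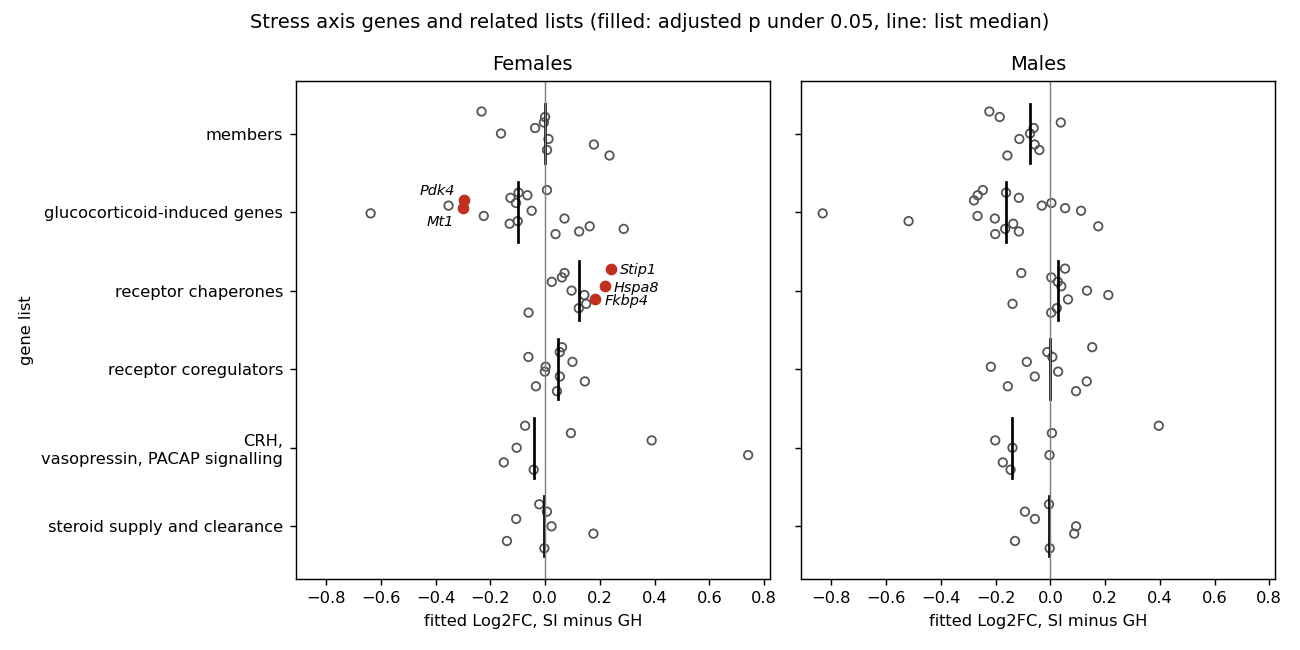
Fitted Log2FC (x axes, SI minus GH) of the 9 stress axis genes (row named members) and of 5 related lists (y axis), females left and males right; each circle is a gene, filled if its adjusted p was under 0.05, and vertical bars are list medians. The 5 filled genes are all in females, Mt1 and Pdk4 at -0.30 and Stip1, Hspa8 and Fkbp4 at 0.24, 0.22 and 0.18.

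Astrocytes hold much of the Mt1 and Fam107a RNA of the brain. Of 6 astrocyte markers, 4 fell in females (Slc1a2, Slc1a3, Aldoc and Aldh1l1, Log2FC -0.22 to -0.28) and 0 rose, where 2.93% of all genes fell, and summed levels were 4209 to 5934 CPM in SI and 5099 to 6918 CPM in GH females. In males 0 were called, with sums of 3318 to 5646 and 4590 to 6364 CPM and a median Log2FC of -0.19. The Log2FC of Mt1 in males was 0.05, or -0.05 without SI males 25, 33 and 39. That of Fam107a in males was -0.27 (adjusted p = 0.443, edgeR). For Fam107a, 5 of the 7 SI males lay below the lowest GH male and 1 above the highest. Of 6 endothelial markers, which mark cells that also express Tsc22d3, 1 was called higher in females (Flt1), where 0.961% of all genes were. With the choroid plexus covariate 0 were, where 96 of 16026 genes were called higher. Cldn5 was called higher in females with the length and GC trend removed (adjusted p = 0.0108) and by limma-voom (0.0213). These fits called 7.69% and 5.23% of all genes in either direction. All 6 had a positive Log2FC in the main fit of females, with sums of 175 to 214 CPM in SI and 142 to 178 CPM in GH females. The part of either cell type in the values of the stress axis genes was not tested.

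SI males 25, 33 and 39 held more of short and less of long transcripts than the other SI males, and the 9 genes were spread along this trend. Over 5 length classes of equal size, the median log2 ratio of their mean CPM over that of the other 4 SI males fell from 0.74 in the shortest to -0.65 in the longest genes. Crh, with a transcript of 1320 bases, had a ratio of 1.14, Hsd11b1 (1583 bases) 0.61, Crhbp (1686 bases) 0.52 and Tsc22d3 (1974 bases) 0.47. The medians of their length classes were 0.74 for Crh, Hsd11b1 and Crhbp and 0.17 for Tsc22d3, so that Crh and Tsc22d3 lay above theirs. Fkbp5 (3858 bases) had -0.44 and Nr3c2 (5916 bases) -0.82, beside class medians of -0.37 and -0.65. Sgk1 (3096 bases), at 0.14, and Nr3c1 (6436 bases), at -0.03, lay above the medians of their length classes, -0.13 and -0.65, and Crhr1 (2460 bases), at -0.03, below that of its class, 0.17. The ratios are a description with no test, since these mice were set apart by their own values.

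**Figure D5:**
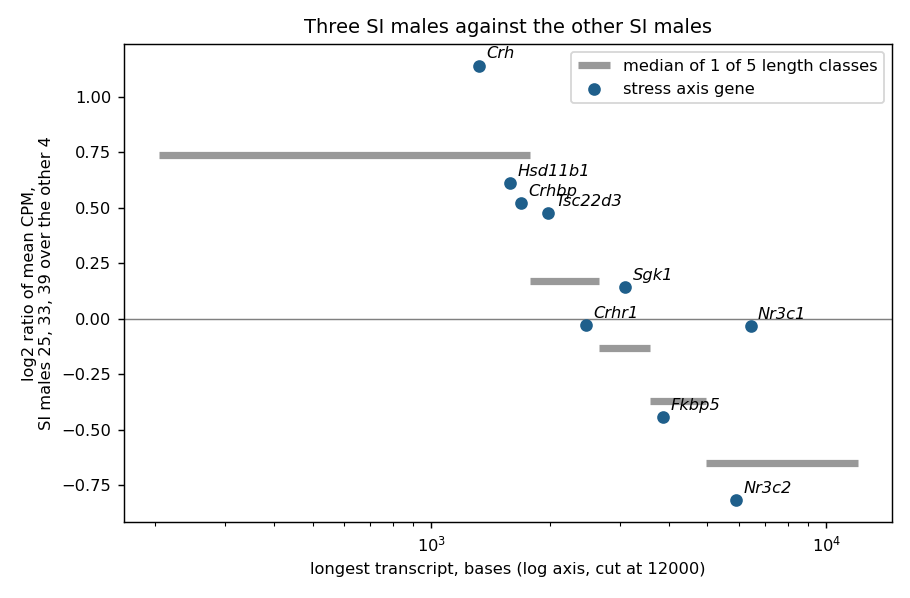
Log2 ratio of mean CPM in SI males 25, 33 and 39 over the other 4 SI males (y axis) against the longest transcript in bases (x axis, log scale); points are the 9 genes and grey bars the medians of 5 classes of all genes by length. The medians fall from 0.74 to -0.65, with Crh at 1.14 and Nr3c2 at -0.82.

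If the 3 targets followed the hormone reaching each mouse, mice high in 1 target would be high in the others, and this was asked within each sex with values centred on the group mean. The values were not adjusted for transcript length, which differs between Fkbp5 (3858 bases), Sgk1 (3096 bases) and Tsc22d3 (1974 bases). A trend on length between libraries can raise or lower r, so that these r cannot decide whether the targets followed the hormone. Of 6 correlations, 0 passed adjustment over the 6. Fkbp5 and Sgk1 in females had a Pearson r of 0.58 (permutation p = 0.0211, adjusted p = 0.0632) and a Spearman rho of 0.575 (permutation p = 0.0273, adjusted p = 0.164) over 15 mice, and r was 0.52 without the 2 mice farthest from the median of Fkbp5. Sgk1 and Tsc22d3 in males had an r of 0.58 (permutation p = 0.0157, adjusted p = 0.0632) and a rho of 0.468 (permutation p = 0.0804, adjusted p = 0.241), with r at 0.44 without the 2 farthest mice, 0.60 over the 12 males other than 25, 33 and 39 and 0.42 without GH male 16. Fkbp5 and Tsc22d3 had an r of -0.15 in females and -0.24 in males, Sgk1 and Tsc22d3 -0.30 in females, and Fkbp5 and Sgk1 0.27 in males, with permutation p-values from 0.282 to 0.603. Without the 2 farthest mice, r was -0.74 for Sgk1 and Tsc22d3 in females and -0.42 for Fkbp5 and Tsc22d3 in males, and it turned sign for Fkbp5 and Tsc22d3 in females (0.21) and for Fkbp5 and Sgk1 in males (-0.07).

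The genes most like each of the 9 were read over the 27 mice other than SI males 25, 33 and 39, as the highest Pearson r of log2 CPM, centred on the group mean, among 14143 genes. These r share libraries, depth and transcript length and are given without a test. Nr3c2 was most like Epha4, Prkca and Usp47, with r of 0.95 for each, and Nr3c1 most like Edil3, Mpp5 and Enpp4, with r of 0.87. Hsd11b1 was most like Med6 (0.91), Psma6 (0.90) and Txndc17 (0.90). Tsc22d3 followed Cables1 (0.87), Ppp1r3g (0.86) and Coq10b (0.85), Fkbp5 followed Ksr1 (0.83), 2900026A02Rik (0.82) and Arhgap39 (0.81), and Sgk1 followed Fzd4 (0.78), Paqr5 (0.77) and St8sia6 (0.73). Crh was nearest to Apitd1 (0.81), Rspo1 (0.80) and Plekho1 (0.80), Crhr1 to Dusp14 (0.83), Bean1 (0.82) and 5430407P10Rik (0.82), and Crhbp to B3gnt1 (0.71), the interneuron peptide Npy (0.69) and Sept8 (0.67). Among the 9 genes themselves, the highest r was that of Crh with Crhr1, 0.64, and the lowest that of Nr3c2 with Hsd11b1, -0.70.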

How the data were processed

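Total RNA of frozen hippocampus was sequenced after poly(A) selection in 30 mice (8 SI and 7 GH females, 7 SI and 8 GH males), grouped by their labels. The authors deposited raw counts, as whole numbers, for each gene in each mouse. Per the submitters' processing notes, Trimmomatic 0.39, Salmon 1.8.0 and DESeq2 1.24.0 were used, with build GRCm39. Of 17477 Ensembl IDs, symbols were matched for 16439 (94.1%) and transcript length and GC content (GENCODE vM1) for 15964 (91.3%). All 30 columns were matched to mice.

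Each sex was fitted apart with edgeR 4.0.16 in R 4.3.3, after filterByExpr (minimum count 10, minimum total 15) and TMM scaling. Surrogate variables (3 in females, 2 in males, 4 in the interaction) were estimated by svaseq of sva 3.50.0 (20 permutations, seed 1) and rounded to 4 decimals. SI was tested against GH with glmQLFit and glmQLFTest, with Benjamini-Hochberg adjustment over all genes and a threshold of 0.05. Log2 CPM used a prior count of 2, and correlations 100000 permutations. The count test was run on simulated data without surrogate variables, so the surrogate variable step was not tested in this way. Total counts of 18809307 to 100844898 per library set the counting precision, and the spread between mice was not compared with it. Alternatives were DESeq2 1.42.0, limma-voom (limma 3.58.1), other numbers of surrogate variables or none, the well digit of the sample titles as a factor, DESeq2's size factors, other filters on low counts, removal of each library's lowess trend (span 0.3) on length and GC content, the choroid plexus markers as a covariate, all groups in 1 fit, and leaving out mice. The exact permutation test without covariates was added after seeing the data.

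The 9 genes and the lists were chosen with earlier results of these data known. The genes named are the 9, each called gene of the 5 related lists and the 2 with the smallest p per list and sex, and the 3 most like each of the 9 over a mean of 1 CPM. Fam107a was added for its promoter match, Mt1 in males for its call in females, and Hif3a and Fosb for calls by DESeq2, after their values were seen. Markers are named where their list's result is given. No gene coordinates are given, since the reference annotation used is of another build.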

Additional observations from a re-analysis of the deposited data

Results flagged for a closer look

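Among the 36 sets of values formed by the 9 genes in the 4 groups, 3 had a mouse whose gap to the next mouse was large for the range of its group by Dixon's criterion, and chance flags about 1 in 20 such sets. The first was Crh in SI female 53, at 4.65 CPM with the next SI female at 2.77 CPM. That mouse also had the highest Crhr1 of the females, 11.4 CPM. The second was Nr3c1 in GH male 15, the lowest of its group at 66.7 CPM with the next at 80.4 CPM. The third was Sgk1 in GH male 16, at 80.9 CPM with the next GH male at 55.2 CPM, and the same mouse had the highest Tsc22d3 (76.7 CPM) and Fkbp5 (59.1 CPM) of the GH males. Without that mouse the Log2FC of Sgk1 in males was -0.09, with an adjusted p of 0.796 (edgeR).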

How the results depend on the processing

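The count of 0 called genes of 9 held in males and for the interaction under every alternative and with each mouse left out. In females it was 2 (Hsd11b1 and Tsc22d3) with the length and GC trend removed, 0 under the other alternatives, and 0 to 1 with each mouse left out. The 1 was Hsd11b1 without GH female 46, in a fit that called 1377 of 16067 genes. The 3 genes at an unadjusted p under 0.05 in females were 1 without surrogate variables, 2 with the choroid plexus covariate, 4 with the length and GC trend removed, 3 under the other alternative fits and 2 to 4 with each mouse left out. The exact permutation test without covariates gave these 3 genes p-values of 0.0572 to 0.105. In males the count of 0 was 2 (Crhr1 and Crh) with all groups in 1 fit and 0 to 0 with each mouse left out. For the interaction the count of 3 was 0 without surrogate variables, 1 with the well digit, 0 with limma-voom, 2 with 1 surrogate variable fewer, with no filter or with the length and GC trend removed, 3 under the others, and 2 to 3 with each mouse left out. Tsc22d3 and Hsd11b1 stayed negative and Crhr1 positive in females under every alternative, with adjusted p-values of 0.0318 to 0.359, 0.0301 to 0.446 and 0.0626 to 0.476. Over all genes, DEGs in females numbered 624 with edgeR, 1263 with DESeq2, 1156 with the length and GC trend removed, 1083 with 1 surrogate variable more, 410 with the choroid plexus covariate, and 0 without surrogate variables or with the well digit. In males they numbered 0, but 44 with DESeq2, 21 with all groups in 1 fit and 2413 without SI male 27, where 0 of the 9 genes were called. The cause of these changes was not tested.

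The Log2FC that changed sign are given by setting. With at least 10 counts in every library they were Crhbp -0.0036, Sgk1 0.0085 in females and Crhbp 0.0098 in males. With the length and GC trend removed they were Crhbp -0.0050, Fkbp5 -0.0022 in females and Nr3c1 0.046 in males. With all groups in 1 fit they were Crhbp -0.00069, Sgk1 0.015 in females and Nr3c1 0.020 in males. Without surrogate variables they were Nr3c2 0.012, Sgk1 0.040 in females, Crh 0.33, Crhbp 0.17, Nr3c2 -0.22, Hsd11b1 0.17 in males and Crh 0.068, Crhbp 0.14, Nr3c1 -0.028, Nr3c2 -0.23 in the interaction. With the well digit as a factor they were Nr3c2 0.027, Sgk1 0.055 in females, Crh 0.19, Crhbp 0.064, Nr3c2 -0.23, Hsd11b1 0.23, Tsc22d3 0.010 in males and Crhbp 0.043, Nr3c1 -0.047, Nr3c2 -0.26 in the interaction. As a difference of mean log2 CPM they were Nr3c2 0.0020, Sgk1 0.050 in females and Crh 0.23, Crhbp 0.15, Nr3c2 -0.27, Hsd11b1 0.14 in males. With limma-voom they were Fkbp5 -0.046 in females, Nr3c2 -0.12 in males and Nr3c1 -0.028, Nr3c2 -0.086 in the interaction. With 1 surrogate variable fewer they were Sgk1 0.017 in females and Crhbp 0.024, Nr3c2 -0.038 in males. With 1 surrogate variable more they were Sgk1 0.0019 in females. With the choroid plexus covariate they were Nr3c1 -0.024 in the interaction. Leaving out 1 mouse at a time, the values that changed sign ran over Crhbp -0.023 to 0.055, Nr3c2 -0.044 to 0.027, Fkbp5 -0.041 to 0.041, Sgk1 -0.043 to 0.034 in females, Crh -0.35 to 0.023, Crhr1 -0.21 to 0.023, Crhbp -0.097 to 0.059, Nr3c1 -0.11 to 0.0018, Nr3c2 -0.14 to 0.16, Hsd11b1 -0.12 to 0.0098 in males and Nr3c1 -0.028 to 0.049, Nr3c2 -0.12 to 0.16 in the interaction. The correlations ran over Fkbp5-Sgk1 in females 0.48 to 0.71, Fkbp5-Tsc22d3 in females -0.42 to 0.013, Sgk1-Tsc22d3 in females -0.65 to -0.16, Fkbp5-Sgk1 in males -0.18 to 0.38, Fkbp5-Tsc22d3 in males -0.54 to -0.10, Sgk1-Tsc22d3 in males 0.42 to 0.66, and Fkbp5-Tsc22d3 in males was 0.23 without SI males 25, 33 and 39. No paired analysis was possible because the replicate numbers are animal numbers, of which SI and GH mice share none. Depth limits Crh most, at 27 to 243 counts per library.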
